A study of Mus musculus with 16 samples.

Results

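The AP-1 family was followed through 8 of its genes, Fos, Fosb, Fosl2, Jun, Junb, Jund, Atf3 and Batf, in spleen B cells of mice without the 3' regulatory region (3'RR) at the immunoglobulin heavy chain genes and of wild-type mice. The members were chosen by name, as every non-control probe carrying 1 of these gene names, which gave 9 probes for 8 genes of 55681 probes and 34832 gene names on the array. Several enhancers at the downstream end of the heavy chain locus make up the 3'RR. The 16 samples were 4 deficient and 4 wild-type on slide 2, and 4 deficient and 4 wild-type on slide 1. In every sample the cells were taken from the spleen with beads against B220, a surface protein of B cells, and total RNA was hybridised to a single-colour (Cy3) Agilent array. The deficient mice are labelled as BALBC mice in which the IgH allele of 129 origin was knocked out, and 129 is the strain entry of the wild-type mice, so genotype and strain cannot be told apart. The labels give no age and no treatment or stimulation of the cells. The series' design names 4 mice per genotype, against 8 arrays per genotype, and the labels do not tie an array to a mouse, so every p-value measures only how far these arrays spread, and some of that spread may be technical. Each slide was scanned in 1 session, and the slide cannot be told apart from the mice whose RNA it carried. By the labels, deficient arrays took the last positions of slide 1 and the first positions of slide 2, and wild-type arrays the others. Genotype and array position therefore cannot be told apart within a slide.

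AP-1 is a family of dimeric transcription factors of the basic leucine zipper class. Jun proteins pair with each other or with Fos proteins, and Fos proteins need a Jun partner to bind DNA at the TPA response element and the related cAMP response element. Fos, Fosb, Jun, Junb and Atf3 are known as immediate early or stress-induced genes whose transcripts are made within minutes of a stimulus, including cell handling, and decay quickly. In B cells AP-1 is known to act downstream of the antigen receptor and CD40, and Batf, which pairs with Jun proteins and binds with IRF4 or IRF8, is known to be needed for class switch recombination.

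In the deficient samples 4 of 8 members, Fos, Fosb, Junb and Atf3, were lower than in wild type over both slides, where 9.95% of all genes tested were, and none was higher. With slide as an additive block 1 of these calls, Fos, held, and 1 member was called with slide as a random block. The difference between deficient and wild-type samples was tested between the slides as well. Of the 8 members Junb alone passed, where 15.9% of all genes did. On slide 2 no member passed the test, where 8.6% of all genes did, with an estimate of spread shared by both slides. Fos lay in the same direction, and its 4 deficient arrays were below its 4 wild-type arrays, as in 9.89% of all genes. On slide 1, 5 members were lower (the same 4 and Jun), by 1.77-fold to 4.46-fold, where 15.8% of all genes were lower. With slide 1 fitted alone, Junb was the only member called. The members also differed widely between the slides within 1 genotype, with Fos and Fosb at least 25-fold lower and Batf about 8-fold higher on slide 2.

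The upstream regions of the members that fell are shown with that of Batf as a member that did not fall. Those of Fosl2 and Jund are not shown, and a part of these sequences in the differences was not tested. Each sequence is the 250 bases before the RefSeq transcription start in assembly GRCm38.p6, written 5' to 3' on the strand of the gene. That assembly is of another mouse strain, so the alleles of the mice studied may differ. Capitals mark exact matches of the cAMP response core TGACG, of the cAMP-type AP-1 site TGANNTCA and of the TPA-type AP-1 site TGANTCA, searched on both strands. A match on the other strand reads as its reverse complement, as in Atf3.
Fos (chr12:85473640-85473889, plus strand): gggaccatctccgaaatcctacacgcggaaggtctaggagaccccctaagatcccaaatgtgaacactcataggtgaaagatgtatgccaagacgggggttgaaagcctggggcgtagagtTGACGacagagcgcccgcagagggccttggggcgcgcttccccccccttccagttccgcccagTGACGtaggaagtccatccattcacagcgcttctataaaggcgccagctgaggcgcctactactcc
Fosb (chr7:19310046-19310295, minus strand): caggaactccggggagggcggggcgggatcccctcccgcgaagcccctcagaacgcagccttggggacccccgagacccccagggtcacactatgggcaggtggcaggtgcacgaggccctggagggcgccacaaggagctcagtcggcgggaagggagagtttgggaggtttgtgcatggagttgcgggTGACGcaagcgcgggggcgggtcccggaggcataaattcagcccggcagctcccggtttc
Jun (chr4:95052223-95052472, minus strand): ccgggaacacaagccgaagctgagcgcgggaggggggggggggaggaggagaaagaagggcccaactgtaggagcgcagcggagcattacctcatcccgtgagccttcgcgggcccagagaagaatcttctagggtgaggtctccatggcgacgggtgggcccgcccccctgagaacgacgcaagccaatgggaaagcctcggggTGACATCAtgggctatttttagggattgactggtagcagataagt
Junb (chr8:84978749-84978998, minus strand): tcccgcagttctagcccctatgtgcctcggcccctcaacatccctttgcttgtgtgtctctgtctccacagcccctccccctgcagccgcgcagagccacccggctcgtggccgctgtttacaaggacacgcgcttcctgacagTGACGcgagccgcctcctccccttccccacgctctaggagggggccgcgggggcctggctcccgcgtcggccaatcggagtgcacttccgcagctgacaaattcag
Atf3 (chr1:191183334-191183583, minus strand): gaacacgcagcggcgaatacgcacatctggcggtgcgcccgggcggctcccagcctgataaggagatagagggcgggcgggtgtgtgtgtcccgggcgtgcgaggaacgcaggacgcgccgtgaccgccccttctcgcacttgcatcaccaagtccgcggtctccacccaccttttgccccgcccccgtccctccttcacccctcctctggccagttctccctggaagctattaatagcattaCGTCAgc
Batf (chr12:85686470-85686719, plus strand): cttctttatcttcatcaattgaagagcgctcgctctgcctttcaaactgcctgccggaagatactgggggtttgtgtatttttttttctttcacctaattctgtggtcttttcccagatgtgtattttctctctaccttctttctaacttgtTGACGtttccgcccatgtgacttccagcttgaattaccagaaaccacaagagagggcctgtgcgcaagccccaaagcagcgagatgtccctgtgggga
TGACG stood in 5 of 8 member windows (Fos, Fosb, Junb, Atf3 and Batf) and in 17.8% of 32851 windows of the same length. Fos held it at 125 to 129 and again at 62 to 66 bases before the start. Fosb held it at 56 to 60, Junb at 102 to 106, Batf at 94 to 98 and Atf3, on the other strand, at 3 to 7 bases before the start. TGANNTCA stood in 2 member windows, as TGACATCA at 38 to 45 bases before the start of Jun and as TGAAATCA at 54 to 61 bases before that of Jund, and in 11.9% of all windows. TGANTCA was in no member window and in 6.75% of all windows. The serum response motif (CArG box) was likewise in no member window and in 1.47% of all windows, which says only that these letters are not in this stretch. TATAAA was found in Fos alone among the members, at 28 to 33 bases before the start, and in 12.4% of all windows. A match describes letters and is no measurement of binding.

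All values below are the log2 of the processed signal relative to the 75th percentile of non-control spots on that array, so 0 is that percentile. Levels of different probes are not comparable, and orders are given within a gene only. The brightest probe of each of the 8 members was well above background on 16 of 16 arrays and saturated on none. The probes of Fos and Batf were spotted 10 times per array and those of the other members once, so an array value for Fos or Batf is a mean over several spots. Fosl2 had a further probe at chr5:32455088-32455147 of mm9, which was well above background on 0 of 16 arrays and was not tested, while its main probe lies at chr5:32460076-32460135 of mm9. The sequence of the dim probe, shown because it is the one member probe that gave no readable signal, is
Fosl2 dim probe: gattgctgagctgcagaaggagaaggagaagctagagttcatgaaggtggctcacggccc

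Across the arrays, 29950 to 34172 probes were well above background on slide 2 and 26040 to 29230 on slide 1, and the signal at the 75th percentile was 596 to 990 on slide 2 arrays, against 576 to 851 on slide 1 arrays. The 6 B cell markers used (Cd79a, Cd79b, Ms4a1, Cd22, Pax5 and Ptprc) were well above background on every array. Their summed level, in multiples of the array's 75th percentile, was 578 to 629 in deficient and 486 to 588 in wild-type samples on slide 2, and 802 to 915 in deficient and 723 to 983 in wild-type samples on slide 1. These sums were lower on slide 2 in both genotypes, without overlap. Markers of most other blood cells differed between the slides as well. The sum of 6 macrophage and monocyte markers was 6.33 to 8.33 in deficient and 6.88 to 7.32 in wild-type samples on slide 2, and 47.7 to 78.5 in deficient and 37.1 to 93.4 in wild-type samples on slide 1. On slide 2, Fcgr1 was not well above background on any array. The sum of 4 plasma cell markers, Irf4 among them, was 134 to 164 in deficient and 151 to 193 in wild-type samples on slide 2, and 67.1 to 123 in deficient and 58.4 to 80.5 in wild-type samples on slide 1. The sum of 8 T cell markers was 5.30 to 6.69 in deficient and 5.09 to 8.10 in wild-type samples on slide 2, and 11.2 to 13.3 in deficient and 11.6 to 13.4 in wild-type samples on slide 1. For 4 NK cell markers it was 0.0403 to 0.0641 in deficient and 0.0736 to 0.0967 in wild-type samples on slide 2, and 0.728 to 3.12 in deficient and 1.12 to 1.57 in wild-type samples on slide 1. On slide 2 none of these 4 was well above background on all 4 arrays of a genotype. Ncr1 and Klrk1 were so on no array there, so the slide 2 sums lie close to background. The dendritic cell sum overlapped between the slides in both genotypes, at 201 to 225 in deficient and 184 to 223 in wild-type samples on slide 2, and 201 to 227 in deficient and 215 to 264 in wild-type samples on slide 1. Siglech had the brightest probe of these 5 markers and weighs most in that sum. Other dendritic cell markers did differ between the slides. Itgax was lower on slide 2 (-6.86 in deficient, -3.73 in wild-type samples), and Flt3 (3.18 in both) and Zbtb46 (2.70 and 3.20) were higher. In bulk RNA, fewer cells of a type and less RNA per cell cannot be told apart.

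Fos, the founding member and an obligate partner of Jun proteins, was lower in the deficient samples. On slide 2 its deficient arrays 1, 2, 3 and 4 were at -3.14, -2.39, -2.30 and -3.16, and its wild-type arrays 1, 2, 3 and 5 at -0.92, -2.10, -1.88 and -1.66. On slide 1 its deficient arrays 9, 10, 11 and 12 were at 2.75, 3.33, 3.00 and 3.54, and its wild-type arrays 2, 5, 6 and 8 at 5.14, 5.39, 3.33 and 3.97. The genotypes did not overlap on slide 2, while on slide 1 the lowest wild-type array, number 6, lay within the deficient range. Group means were -2.75 ± 0.47 in deficient and -1.64 ± 0.51 in wild-type samples on slide 2, and 3.16 ± 0.35 in deficient and 4.46 ± 0.97 in wild-type samples on slide 1 (SD, n = 4 each). Over both slides Fos was lower by 2.30-fold (difference -1.20, SE 0.29, limma adjusted p = 0.0118). The difference was -1.11 on slide 2 (SE 0.41, 95% interval -1.99 to -0.22, adjusted p = 0.121) and -1.30 on slide 1 (SE 0.41, adjusted p = 0.034). The 2 differences were 0.20 apart (SE 0.58, adjusted p = 0.851 for slide 2 minus slide 1). The slide 1 call of Fos was lost when any of deficient arrays 9, 10 or 11 or wild-type arrays 2 or 5 was left out (adjusted p = 0.0543 to 0.0911), and the both-slides call held without any single array (adjusted p = 0.00279 to 0.027).

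Fosb, a Fos protein with both full-length and truncated products, moved with Fos on slide 1. Its deficient arrays 1, 2, 3 and 4 on slide 2 were at -2.99, -2.78, -3.03 and -3.06, and its wild-type arrays 1, 2, 3 and 5 at -1.98, -2.76, -2.81 and -2.41. On slide 1 its deficient arrays 9, 10, 11 and 12 were at 1.52, 1.75, 1.72 and 1.74, and its wild-type arrays 2, 5, 6 and 8 at 4.67, 4.83, 1.80 and 2.94. The genotypes were apart on slide 1, but wild-type array 6 exceeded the highest deficient array by only a small margin, and 2 of 4 wild-type arrays, 2 and 5, were far above the rest. The mean was 1.68 ± 0.11 in deficient and 3.56 ± 1.45 in wild-type samples of slide 1 (SD, n = 4 each). On slide 2 the genotypes overlapped and the difference was -0.47 (SE 0.50, 95% interval -1.54 to 0.60, limma adjusted p = 0.65). Fosb was lower by 3.68-fold on slide 1 (difference -1.88, SE 0.50, adjusted p = 0.0152). Over both slides it was -1.18 (SE 0.35, adjusted p = 0.0335), a call that ended when any 1 of 9 arrays was left out (adjusted p = 0.0512 to 0.0695) and with slide as a block, additive (0.0593) or random (0.0991).

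Fosl2 (Fra-2), a Fos protein without a strong activation domain, gave no call between the genotypes. Its deficient arrays 1, 2, 3 and 4 were at -1.46, -1.17, -0.98 and -1.51 on slide 2, against -1.03, -0.85, -1.08 and -0.77 in wild-type arrays 1, 2, 3 and 5. On slide 1 the deficient arrays 9, 10, 11 and 12 were at -2.29, -2.44, -1.51 and -2.63, against -1.84, -2.95, -2.69 and -2.85 in wild-type arrays 2, 5, 6 and 8. The genotypes overlapped on both slides. The difference over both slides was 0.01 (SE 0.18, 95% interval -0.38 to 0.40, limma adjusted p = 0.978), made of -0.34 on slide 2 and 0.36 on slide 1.

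**Figure D1:**
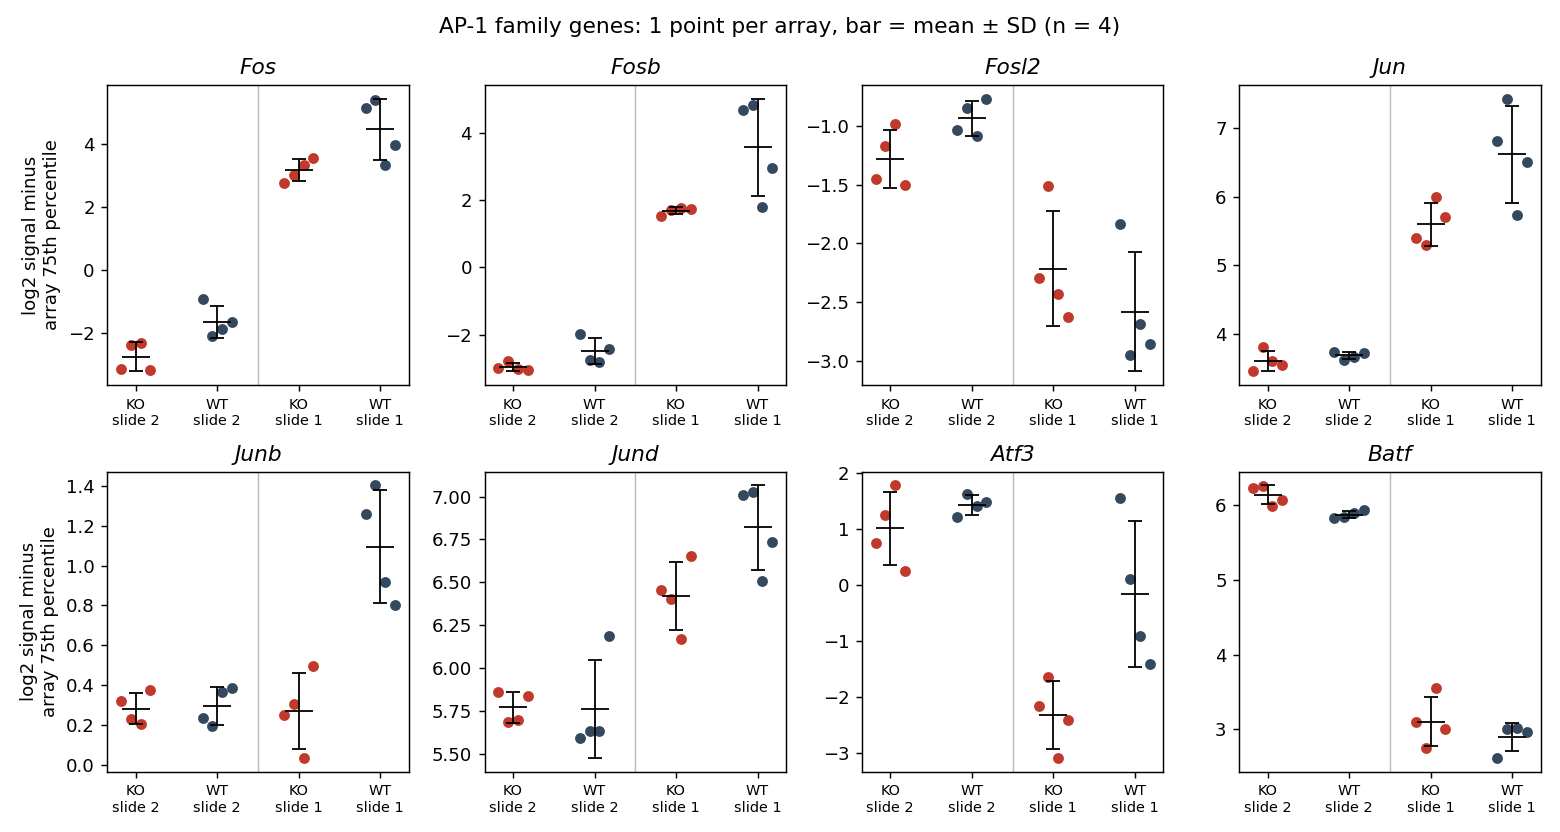
Level of each of the 8 members on every array (vertical axis, log2 signal relative to the 75th percentile of the array), by slide and genotype (KO deficient, WT wild type), with 1 point per array and the group mean. On slide 1, the wild-type arrays of Fos span 3.33 to 5.39 and those of Fosb 1.80 to 4.83, while the deficient arrays lie close together.

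Jun, which forms AP-1 with itself or with Fos proteins, was lower in deficient samples on slide 1. Its deficient arrays 1, 2, 3 and 4 were at 3.46, 3.82, 3.60 and 3.55 on slide 2, against 3.74, 3.63, 3.67 and 3.73 in wild-type arrays 1, 2, 3 and 5. On slide 1 the deficient arrays 9, 10, 11 and 12 were at 5.40, 6.00, 5.30 and 5.70, against 6.82, 7.43, 5.73 and 6.50 in wild-type arrays 2, 5, 6 and 8. On slide 1, 3 of 4 wild-type arrays lay above every deficient array, and array 6 lay among them. The difference was -0.08 on slide 2 (SE 0.26, 95% interval -0.65 to 0.48, limma adjusted p = 0.903), where the genotypes overlapped. Jun was lower by 2.03-fold on slide 1 (difference -1.02, SE 0.26, adjusted p = 0.0133). Over both slides Jun missed the threshold (difference -0.55, SE 0.19, adjusted p = 0.0556). It passed when wild-type slide 1 array 6 (adjusted p = 0.00416) or deficient slide 1 array 10 (adjusted p = 0.0433) was left out.

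Junb, a Jun protein known for weaker activation of transcription and for opposing Jun in some settings, had the smallest adjusted p of the members on slide 1. On slide 2 its deficient arrays 1, 2, 3 and 4 were at 0.32, 0.23, 0.21 and 0.37, and its wild-type arrays 1, 2, 3 and 5 at 0.24, 0.20, 0.37 and 0.39. On slide 1 its deficient arrays 9, 10, 11 and 12 were at 0.25, 0.03, 0.31 and 0.50, and its wild-type arrays 2, 5, 6 and 8 at 1.26, 1.40, 0.92 and 0.80. The genotypes overlapped on slide 2, and on slide 1 all 4 deficient arrays were below all 4 wild-type arrays. Group means on slide 2 were 0.28 ± 0.08 in deficient and 0.30 ± 0.09 in wild-type samples, and on slide 1 they were 0.27 ± 0.19 in deficient and 1.09 ± 0.28 in wild-type samples (SD, n = 4 each). The difference was -0.01 on slide 2 (SE 0.13, 95% interval -0.29 to 0.26, limma adjusted p = 0.971), and Junb was lower by 1.77-fold on slide 1 (difference -0.82, SE 0.13, adjusted p = 0.000689). The 2 differences were 0.81 apart (SE 0.18, adjusted p = 0.0107), so the both-slides value of -0.42 (SE 0.09, adjusted p = 0.0061) averages slides that did not give the same difference. That call ended with slide as a block, additive (adjusted p = 0.0598) or random (0.0602).

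Jund, the Jun protein known to be made more steadily than the other 2, gave no call between the genotypes. Its deficient arrays 1, 2, 3 and 4 were at 5.86, 5.68, 5.70 and 5.84 on slide 2, against 5.59, 5.63, 5.63 and 6.19 in wild-type arrays 1, 2, 3 and 5. On slide 1 the deficient arrays 9, 10, 11 and 12 were at 6.46, 6.17, 6.41 and 6.65, against 7.01, 7.02, 6.51 and 6.74 in wild-type arrays 2, 5, 6 and 8. Only wild-type array 6 of slide 1 fell inside the deficient range of that slide. The difference was 0.01 on slide 2 (SE 0.15, 95% interval -0.31 to 0.33, limma adjusted p = 0.982) and -0.40 on slide 1 (SE 0.15, 95% interval -0.72 to -0.08, adjusted p = 0.067). The slide 1 value passed the threshold without deficient slide 1 array 12, wild-type slide 1 array 6 or wild-type slide 2 array 5 (adjusted p = 0.029 to 0.0473).

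Atf3, a stress-induced partner of Jun proteins that is known to repress as a homodimer, had the largest difference of the 8 members on slide 1. On slide 2 its deficient arrays 1, 2, 3 and 4 were at 0.75, 1.25, 1.78 and 0.25, and its wild-type arrays 1, 2, 3 and 5 at 1.21, 1.62, 1.40 and 1.47. On slide 1 its deficient arrays 9, 10, 11 and 12 were at -2.16, -3.09, -1.64 and -2.41, and its wild-type arrays 2, 5, 6 and 8 at 1.55, 0.10, -0.92 and -1.40. The genotypes overlapped on slide 2, and on slide 1 every deficient array was below every wild-type array, with wild-type arrays 2 and 5 the highest. Means on slide 2 were 1.01 ± 0.66 in deficient and 1.43 ± 0.17 in wild-type samples, and on slide 1 they were -2.32 ± 0.61 in deficient and -0.17 ± 1.31 in wild-type samples (SD, n = 4 each). The difference on slide 2 was -0.42 with no call (SE 0.53, 95% interval -1.55 to 0.71, limma adjusted p = 0.712). On slide 1 Atf3 was lower by 4.46-fold (difference -2.16, SE 0.53, adjusted p = 0.00978). Over both slides the difference was -1.29 (SE 0.37, adjusted p = 0.0285), and this call ended without deficient slide 1 array 10, deficient slide 2 array 1 or 4, or wild-type slide 2 array 2 (adjusted p = 0.0535 to 0.0597). It also ended with slide as a block, additive (adjusted p = 0.0597) or random (0.0634).

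Batf, the small factor known to be needed for class switching, was slightly higher in the deficient samples of slide 2 without passing the test in the main model. Its deficient arrays 1, 2, 3 and 4 on slide 2 were at 6.22, 6.25, 5.99 and 6.06, against 5.82, 5.83, 5.88 and 5.93 in wild-type arrays 1, 2, 3 and 5. On slide 1 its deficient arrays 9, 10, 11 and 12 were at 3.10, 3.55, 2.76 and 3.01, against 2.62, 3.00, 3.01 and 2.97 in wild-type arrays 2, 5, 6 and 8. The genotypes were apart on slide 2 by a small margin and overlapped on slide 1. The difference was 0.26 on slide 2 (SE 0.14, 95% interval -0.04 to 0.56, limma adjusted p = 0.295) and 0.23 over both slides (SE 0.10, adjusted p = 0.127). Batf passed on slide 2 with array weights (0.287, adjusted p = 0.0199), a setting that called 6251 of all genes there. Over both slides it passed without deficient slide 1 array 11 (0.29, adjusted p = 0.041). Fos and Batf both lie on chromosome 12, which also carries the heavy chain locus, and a link of their levels to that locus was not tested.

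**Figure D2:**
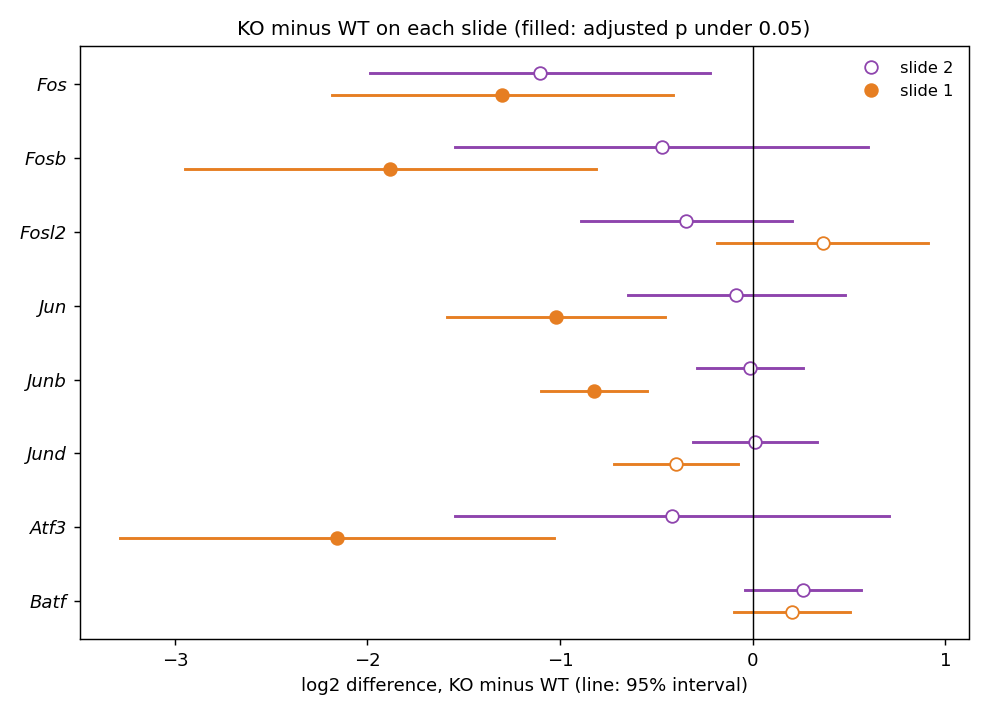
Difference between deficient and wild-type samples for each of the 8 members on each slide (horizontal axis, log2, deficient minus wild type, with 95% intervals from limma). On slide 2 the interval of Fos alone lies below 0, and on slide 1 those of Fos, Fosb, Jun, Junb, Jund and Atf3 do.

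Read against all 22732 genes tested, 4 of 8 members were called lower over both slides where 9.95% of genes were, and 0 were called higher where 7.64% were (17.6% in either direction). On slide 2, 0 of 8 were lower where 4.27% of genes were and 0 were higher where 4.33% were (8.6% in either direction). Fos alone of the members had an unadjusted p under 0.05 in limma's model there (0.018). On slide 1, 5 of 8 were lower where 15.8% of genes were, and 0 were higher where 9.19% were (25% in either direction). With the 8 arrays of slide 1 fitted alone, Junb was the 1 member called, and Atf3 (adjusted p = 0.0691), Jun (0.0956), Fosb (0.0975) and Fos (0.105) were not. With slide as an additive block, 1 member, Fos, was called over both slides. In the difference between the slides, 1 of 8 was called (Junb) where 15.9% of genes were (10.5% in its direction). With deficient samples lower, the genotypes did not overlap for 1 member on slide 2 (Fos), where 9.89% of genes did not, and for 3 on slide 1 (Fosb, Junb and Atf3), where 15.1% did not. With deficient samples higher, they did not overlap for 1 member on slide 2 (Batf), where 13.9% of genes did not, and for 0 on slide 1, where 7.37% did not. The median difference of the 8 members was -0.214 on slide 2, -0.922 on slide 1 and -0.486 over both slides, beside medians of 0.0157, -0.0784 and -0.0298 over all genes. Of the genes called over both slides, 43.4% were higher in deficient samples, and 58.3% were with arrays scaled by their median. On slide 2 these shares were 50.4% and 65.6%, and on slide 1 they were 36.8% and, with the authors' deposited log2 table, 47.9%.

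The slides were compared within each genotype. Most genes differed there, with 76.1% of genes called in deficient and 73.9% in wild-type samples, so that the members' calls, 7 of 8 in deficient samples and 8 of 8 in wild-type samples, are close to that background. In deficient samples 4 members were lower and 3 higher on slide 2, where 25.6% and 50.5% of genes were, and in wild-type samples 5 were lower and 3 higher, where 25.2% and 48.7% of genes were. The median of all genes was itself 0.402 higher on slide 2 in deficient and 0.354 higher in wild-type samples, and with arrays scaled by their median it was 0.109 in deficient and -0.0258 in wild-type samples. Of the called genes, 66.4% in deficient and 65.9% in wild-type samples were higher on slide 2, and with arrays scaled by their median 53.9% in deficient and 47.7% in wild-type samples were. The members kept their directions under these scalings, apart from Junb in deficient samples (0.01 as scaled by the percentile, -0.28 to 0.09 over all settings run).

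Fos was 59.7-fold lower on slide 2 in deficient samples (difference -5.90, limma adjusted p = 9.22e-09) and 68.4-fold lower in wild-type samples (difference -6.10, adjusted p = 7.96e-09). Fosb was 25-fold lower in deficient samples (-4.65, adjusted p = 9.36e-07) and 66.4-fold lower in wild-type samples (-6.05, adjusted p = 6.44e-08). For both, the group means were highest in wild-type samples of slide 1, then deficient samples of slide 1, and lowest on slide 2. On slide 2 the wild-type mean was above the deficient mean, a step that did not pass the test for either gene. Jun was 3.98-fold lower on slide 2 in deficient and 7.61-fold lower in wild-type samples, and Jund fell by 0.65 in deficient and by 1.06 in wild-type samples on the log2 scale. For Jun and Jund the neighbouring groups of slide 2 did not differ beyond their spread.

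Atf3 and Batf ran the other way, and the means of Atf3 were higher in both groups of slide 2, which did not differ beyond their spread, than in wild-type and then deficient samples of slide 1. Atf3 was 10.1-fold higher on slide 2 in deficient samples (difference 3.33, limma adjusted p = 4.61e-05) and 3.02-fold higher in wild-type samples (1.59, adjusted p = 0.0135). Batf was 8.14-fold higher in deficient (3.03, adjusted p = 1.64e-10) and 7.81-fold higher in wild-type samples (2.97, adjusted p = 2.45e-10), and its slide 2 and slide 1 arrays were separated by more than 2 log2 units. Fosl2 was higher on slide 2 by 0.94 in deficient (adjusted p = 0.00402) and by 1.65 in wild-type samples (adjusted p = 4.18e-05). Junb was the member with a slide difference in wild-type samples (-0.80, adjusted p = 5.71e-05) and none in deficient samples (0.01, 95% interval -0.26 to 0.29, adjusted p = 0.935). The summed levels of several marker lists moved with the slide as well. The plasma cell sum was higher on slide 2 and the B cell sum lower. The T cell, NK cell, macrophage, neutrophil and erythroid sums were mostly lower. The single plasma cell markers did not move together. Xbp1 was higher on slide 2 (0.99 in deficient, 1.73 in wild-type samples) and Sdc1 lower (-3.39 and -1.27). Prdm1 was higher in wild-type samples only (1.99), and Irf4 was called in neither genotype. The neutrophil markers were split too. S100a8 and S100a9 were lower on slide 2 in both genotypes and Mpo in deficient samples only. Elane was higher on slide 2 (0.86 in deficient, 1.31 in wild-type samples), and Ly6g was higher in wild-type samples only (0.91). The part of other cells in the members' slide differences was not tested.

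**Figure D3:**
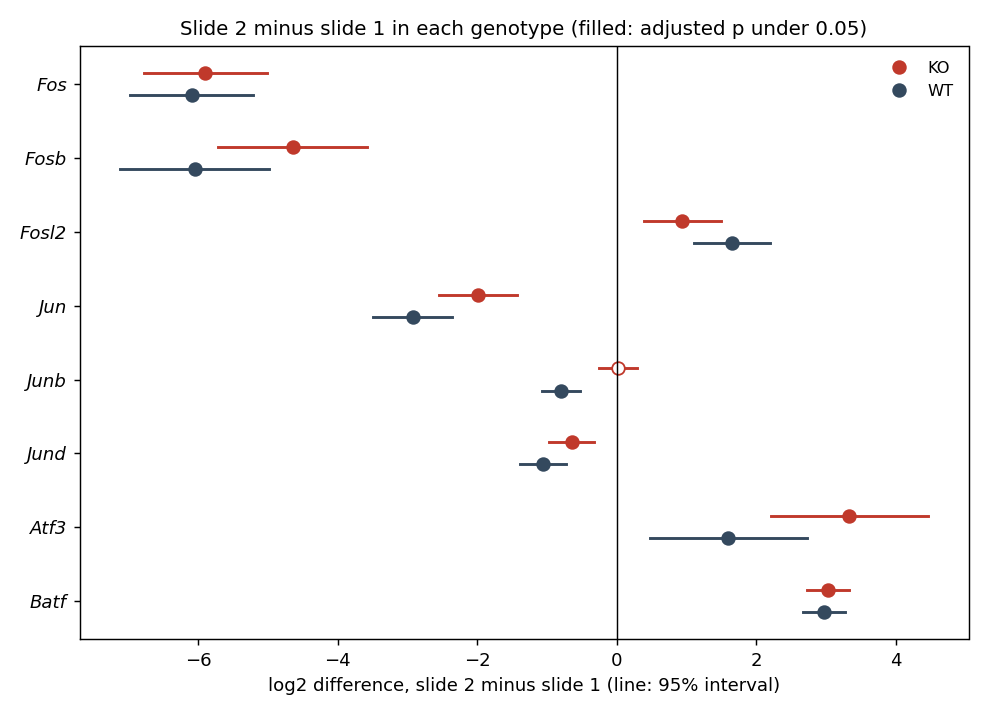
Difference between slide 2 and slide 1 for each of the 8 members within deficient and within wild-type samples (horizontal axis, log2, slide 2 minus slide 1, with 95% intervals from limma). Fos, Fosb, Jun and Jund lie below 0 and Fosl2, Atf3 and Batf above it in both genotypes, and Junb is at 0.01 in deficient and -0.80 in wild-type samples.

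Within groups, some members deviated together from array to array. Taking each array's deviation from its group mean over the 16 arrays, which share their arrays and scaling, Fos and Fosb had a Pearson correlation of 0.881, Fosb and Jun 0.849, Fos and Jun 0.816, Fosl2 and Atf3 0.769 and Junb and Jund 0.753. Batf had negative values with Fosl2 (-0.652) and Atf3 (-0.651). Wild-type samples of slide 1 carried part of this, since over the other 12 arrays Fos and Fosb were at 0.767, Fos and Jun at 0.559 and Fosb and Jun at 0.354. Fosl2 and Atf3 (0.773) and Junb and Jund (0.749) were about the same over those 12 arrays.

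**Figure D4:**
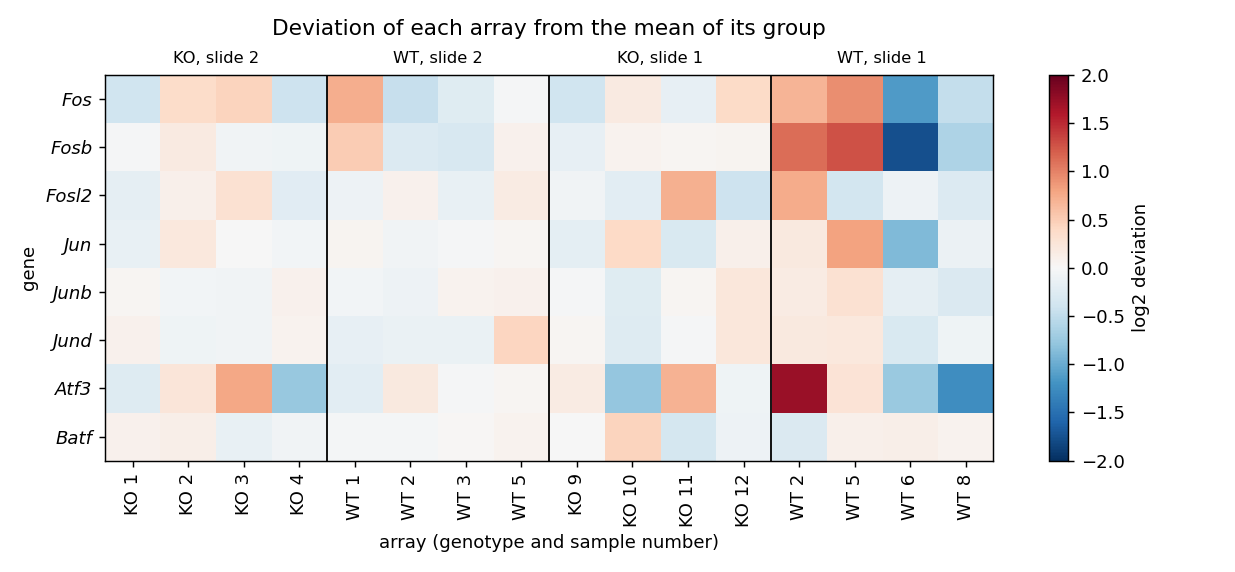
Deviation of each array from the mean of its group (colour, log2) for the 8 members in rows and the 16 arrays in columns, grouped by slide and genotype (KO deficient, WT wild type). Wild-type arrays 2 and 5 of slide 1 are above their group mean, and array 6 below it, for Fos, Fosb and Jun.

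Wild-type arrays 2 and 5 of slide 1 were the highest of their group for Fos, Fosb, Jun, Junb, Jund and Atf3, and some of the marker lists split the same arrays while others did not. The summed level of 5 neutrophil markers was 34.5, 16.2, 145 and 9.07 in deficient arrays 9, 10, 11 and 12 and 30.7, 22.4, 3.36 and 5 in wild-type arrays 2, 5, 6 and 8. The sum of 3 erythroid markers was 216, 84.6, 130 and 61.2 in the same deficient arrays and 342, 219, 54.8 and 173 in the same wild-type arrays. In wild-type arrays 2, 5, 6 and 8 the plasma cell sum was 80.5, 78.0, 62.2 and 58.4 and the dendritic cell sum 241, 264, 215 and 218, both higher in arrays 2 and 5. The macrophage sum was 60.2, 37.1, 93.4 and 69.3 there, lower in arrays 2 and 5. On slide 2 the neutrophil sum was 4.12 to 4.96 in deficient and 3.23 to 5.87 in wild-type samples, and the erythroid sum 1.88 to 9.79 in deficient and 0.0856 to 0.122 in wild-type samples, with S100a8 and S100a9 not well above background on any slide 2 array. Alas2 and Hbb-b1 were not well above background on any wild-type array of slide 2. The neutrophil sum of deficient array 11 was the highest of all 16, and Fos in that array was at 3.00. In wild-type arrays 2, 5, 6 and 8 of slide 1 Fos was at 5.14, 5.39, 3.33 and 3.97. The part of other cells in the members' levels was not tested.

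Most other immediate early genes, which share the rapid induction of Fos, were lower in deficient samples. Of 16 measured genes of a list of 17, 13 were lower over both slides (9.95% of all genes were) and none higher, with a median difference of -0.568. On slide 2, 3 were lower (4.27% of all genes), with a median of -0.196, and on slide 1, 12 were lower (15.8% of all genes), with a median of -0.826. Among them Dusp1, a phosphatase that inactivates MAP kinases, fell by 1.04 (SE 0.19, limma adjusted p = 0.00216). Its difference was -0.37 on slide 2 and -1.71 on slide 1. Klf4, a Krüppel-like factor, was at -0.92 (SE 0.26, adjusted p = 0.0267), a mean of 0.00 on slide 2 and -1.84 on slide 1. Egr3, an early growth response factor, was at -0.89 (SE 0.23, adjusted p = 0.0153), but it was well above background on slide 2 in 0 of 4 deficient and 3 of 4 wild-type arrays and on slide 1 in 2 of 4 arrays of each genotype. Egr1, the best known of that family, was at -0.85 (SE 0.15, adjusted p = 0.00197) and passed on both slides (-0.91 on slide 2, adjusted p = 0.0187, and -0.79 on slide 1, adjusted p = 0.018).

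Other relatives and dimer partners of AP-1 were measured as well. Of 16 further AP-1 and dimer partner genes, all measured, 1 was lower and none higher, where 17.6% of all genes were called, with a median of -0.0449. It was Maff, a small Maf protein, at -0.74 (SE 0.18, limma adjusted p = 0.011), a mean of -0.87 on slide 2 and -0.61 on slide 1. On slide 2 it was the only one called, and on slide 1, 3 of the 16 were lower (Mafk, Atf4 and Creb1) and 3 higher (Jdp2, Batf2 and Batf3), 6 in all where 25% of all genes were called. Jdp2, which pairs with Jun proteins and is known to repress, was at -0.40 on slide 2 (adjusted p = 0.175) and higher by 1.01 on slide 1 (adjusted p = 0.00118), and the 2 differences were -1.41 apart (adjusted p = 0.00303). Batf2 and Batf3 differed between the slides in the same direction (-1.32, adjusted p = 0.0129, and -1.48, adjusted p = 0.0141). Mafk (0.84, adjusted p = 0.00634), Atf4 (0.66, adjusted p = 0.00976) and Creb1 (0.37, adjusted p = 0.0134) differed between the slides in the other direction. Fosl1 (Fra-1) was well above background on all 8 arrays of slide 2 and on none of slide 1, and it gave no call between the genotypes.

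The kinases and factors that act upstream of AP-1 were read in the same way. Of 20 MAP kinases and promoter factors, all measured, 0 were lower and 2 higher over both slides, where 9.95% and 7.64% of all genes were. Their median difference was 0.0463. The 2 higher genes were Braf, a kinase of the ERK cascade, at 0.27 (SE 0.07, limma adjusted p = 0.0193) and Mapk9, which encodes JNK2, at 0.22 (SE 0.06, adjusted p = 0.0219). On slide 2 none of the 20 was called, where 8.6% of all genes were. On slide 1 the same 2 were higher and Mapk14, which encodes p38, was lower (-0.26, adjusted p = 0.0194), where 25% of all genes were called. The difference between the slides was called for Mapk14 (0.37, adjusted p = 0.0296) and Map2k6 (0.75, adjusted p = 0.0316), 2 of the 20, where 15.9% of all genes were called. Of 6 measured genes of 7 that encode partners at composite sites, 1 was lower and 1 higher over both slides, where 17.6% of all genes were called. Irf4, which binds with Batf, was lower, at -0.47 (SE 0.11, adjusted p = 0.00939). Nfatc2, an NFAT factor that binds with AP-1, was higher, at 0.53 (SE 0.12, adjusted p = 0.0097). None of the 6 measured genes of 8 described AP-1 targets was called over both slides, where 17.6% of all genes were, with a median of 0.181. On slide 2 none of the targets was called, where 8.6% of all genes were. On slide 1 Vim, an intermediate filament gene, and Cd44, a hyaluronan receptor gene, were higher by 0.44 (adjusted p = 0.0114) and 0.37 (adjusted p = 0.0298). Of all genes 9.19% were higher there.

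**Figure D5:**
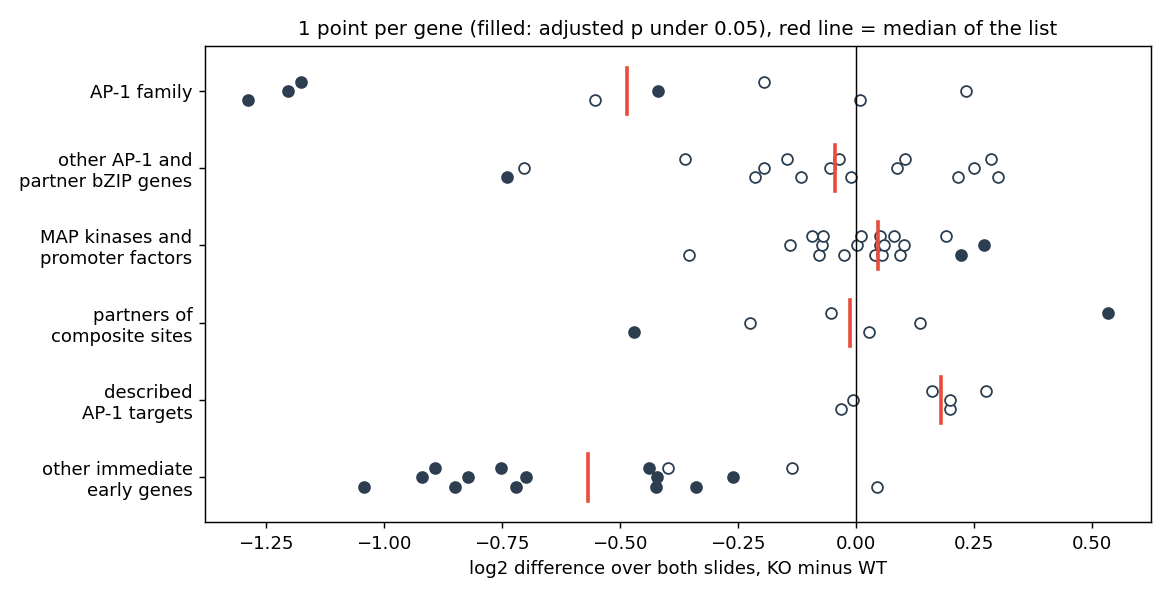
Difference between deficient and wild-type samples for every measured gene of the 8 members and of the other lists (horizontal axis, log2, KO for deficient minus WT for wild type, over both slides), with 1 point per gene, filled where the adjusted p was under 0.05, and a red line at the list's median. The other immediate early genes lie mostly below 0, with 13 of 16 called lower over both slides, while the lists of upstream kinases, partners and described targets are spread around 0.

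The genes that deviated from their group means most like a member, of 16591 genes well above background on all 16 arrays, were named without regard to function. As the highest of so many values over 16 arrays they are high in part by selection, and they were not tested. Those of Fosb, Jun and Jund are not listed. For Fos these were Atp13a1 (Pearson 0.912), a probe without a gene symbol (0.887) and 2210018M11Rik (0.885). For Junb they were Slx1b (0.901), Pvrl2 (0.882) and Klf2 (0.879). For Atf3 they were Eif2c4 (0.948), Ifrd1 (0.937) and 2900005J15Rik (0.934), and for Batf Pdia3 (0.958), Ufm1 (0.936) and Nmt1 (0.936). Fosl2 was followed by B830008H07Rik (0.951), Acot1 (0.915) and Bivm (0.907).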

How the data were processed

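RNA of splenic B cells was measured on 16 single-colour arrays, 4 per genotype on each of 2 slides. Spot intensity values are the scanner output as the authors deposited it, read with version 10.7.3.1 of Agilent Feature Extraction (per the file headers), background-subtracted and detrended within each array. Coordinates follow mm9 per the file headers. A table of log2 values as deposited by the authors, with column medians of 6.49 to 6.50 on slide 2 and 5.58 to 5.61 on slide 1, had been scaled by slide and served as an alternative within slides. Limma is listed, without a version, in the submitters' processing notes of the slide 2 arrays.

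The 3671 control spots of 62976 and outlier-flagged spots were left out, the log2 processed signal was set relative to the array's 75th percentile, spots of a probe were averaged, and probes had to be well above background on 4 or more of the 16 arrays. Each gene was represented by its brightest probe, and 22732 genes were tested. Gene names are those of the slide 1 files, which differ at 2201 spots from the slide 2 files, at none of the members. The accessions of all 9 member probes matched RefSeq under the same symbol.

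One model in limma 3.58.1 (R 4.3.3) with a mean per genotype and slide gave all differences. In it the groups share 1 estimate of spread per gene. All adjusted p-values are limma's, by Benjamini-Hochberg over all genes, with a threshold of 0.05. The alternatives were other scalings (median, quantile, normexp), other filters and probe summaries, array weights, slide as a block, each slide alone, the deposited table, a replicate block, and leaving out each array. Samples of the 2 genotypes with a shared replicate number on slide 2 had correlations of deviations of 0.00977, 0.123 and 0.0679. Wild-type samples with a shared number across the slides had 0.0243 and 0.0599. These values do not settle whether the numbers pair samples, and the numbers were not used as a block in the main model. The members, the lists of related genes and the cell markers were chosen with earlier results of these data known, and some genes of these lists are not reported here and are left out of the counts and sums. Named genes are all members, up to 4 called genes per list with the largest difference over both slides, and the 3 genes most like a member; the slide 1 calls of the other lists and the genes with differences between slides were named after their values were seen. The number of arrays limits the precision.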

Additional observations from a re-analysis of the deposited data

Results flagged for a closer look

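In 3 of 32 groups of 4 arrays, the lowest or highest array lay far from the other 3, where chance sets such a flag in about 1 of 20 groups. Fosb in deficient array 9 of slide 1 was at 1.519, below the other 3 arrays at 1.72 to 1.75. Jund in wild-type array 5 of slide 2 was at 6.187, above the other 3 at 5.59 to 5.63, and Batf in wild-type array 2 of slide 1 was at 2.618, below the other 3 at 2.97 to 3.01. The difference between deficient and wild-type samples in Junb was not the same on the slides, by 0.8104 (slide 2 minus slide 1, limma adjusted p = 0.0107), since it was -0.01 on slide 2 and -0.82 on slide 1.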

How the results depend on the processing

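Over both slides, 4 members were lower, and 1 was with slide as an additive block, 1 with slide as a random block and 1 with the replicate block, and 2 to 5 without single arrays. On slide 2, 0 were lower, and 1 was with array weights (Fos, adjusted p = 0.0378), and 0 without single arrays. With array weights Batf was called higher there (adjusted p = 0.0199). On slide 1, 5 were lower, and 3 were with array weights, 1 (Junb) with each slide fitted alone and 4 to 6 without single arrays. For the difference between slides, 1 was called, and 2 with arrays scaled by their median, 2 with array weights, 0 with the replicate block (Junb, adjusted p = 0.0554) and 1 to 3 without single arrays. No direction of a called member turned. The call of Fos on slide 1 ended with no filter on dim probes (adjusted p = 0.0574), array weights (0.174), the slide alone (0.105) and the replicate block (0.0807), and the both-slides call with the replicate block (0.0786). The both-slides calls of Fosb (0.0504 to 0.141), Atf3 (0.0597 to 0.133) and Junb (0.0598 and 0.0602) ended with slide as a block or, for Fosb and Atf3, the replicate block, and that of Fosb also with no filter and the deposited table. That of Jun was gained with quantile scaling (0.0485), normexp (0.0466), array weights (0.0434) and the deposited table (0.0398). Of the values of single members under alternatives, 1200 kept their side of the threshold, 39 lost a call and 17 gained one. Over all genes, 3998 were called over both slides, and 2237 with the random block and 2357 with the replicate block. On slide 2 it was 1954, and 6251 with array weights, 2962 with the slide alone and 837 with the replicate block, and on slide 1 it was 5677, and 2212 with the slide alone. In Atf3 the difference between slides in wild-type samples was 0.72 with the replicate block (adjusted p = 0.211). Whether the replicate numbers pair the samples is not known. The causes were not tested. Dim spots limit Fosl2's further probe and Fosl1.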
